A study of Homo sapiens with 6 samples.

Results

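Transcription of the immunoglobulin heavy chain variable (IGHV) segments differed between the lines in amount and in which segment led. In LY19Y646F almost all of it lay in the row of a single segment, IGHV3-23, at 4523 to 6529 FPKM, against 0.381 to 1.70 FPKM in LY19WT. In LY19WT the highest row was at 89.2 to 236 FPKM and named IGHV3-48, which did not pass 0.938 FPKM in LY19Y646F. FPKM are fragments per kilobase of transcript scaled to the mapped fragments of the library, so levels can be compared between genes of different length. The members are all segments whose symbol starts with IGHV, 147 of the 56584 gene symbols in the 6 libraries, and every table row that names at least 1 of them was counted once per library.

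The samples are cultures of lymphoma B cell lines, both untreated and at passages 10 to 15, with 3 libraries per line that the labels call biological replicates. LY19Y646F constitutively expresses the EZH2 Y646F mutant from a CMV promoter, and LY19WT carries wild type EZH2. EZH2 is the methyltransferase of the Polycomb complex that marks lysine 27 of histone H3. The sources used here do not say whether the lines descend from the same clone or how many clones the mutant line holds, so line and EZH2 genotype cannot be told apart, nor can fewer expressing cells and less RNA per cell.

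In a B cell precursor, one variable (V), one diversity (D) and one joining (J) segment are cut and joined by the RAG1 and RAG2 recombinase to make the variable exon of the heavy chain. The promoter of each V segment is weak until that joining brings it near the enhancers beside the constant genes, and the rearranged V is then transcribed strongly as part of an IGHM or switched transcript. Cells that descend from one B cell carry the same rearrangement, and most V segments of the locus remain in the germline arrangement or are deleted by it.

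The leading segments of both lines belong to the IGHV3 family, so the letters that let an aligner tell them apart are shown, together with the pseudogene IGHV5-78, the highest segment that had a row free of other V segments in all 6 libraries. The sequences are the germline reference of GENCODE 29 on GRCh38 (minus strand), not the rearranged or mutated copies in these cells, which were not analysed here. IGHV3-23 lies at chr14:106268606-106269140 and IGHV3-48 at chr14:106537810-106538344. Their spliced coding sequences of 353 bases differ at 30 positions. Bases 58 to 353, which leave out the signal peptide, are given, and capitals mark the 24 differing positions among these 296 bases. IGHV5-78 lies at chr14:106851123-106851417 and is given in lower case throughout.
IGHV3-23: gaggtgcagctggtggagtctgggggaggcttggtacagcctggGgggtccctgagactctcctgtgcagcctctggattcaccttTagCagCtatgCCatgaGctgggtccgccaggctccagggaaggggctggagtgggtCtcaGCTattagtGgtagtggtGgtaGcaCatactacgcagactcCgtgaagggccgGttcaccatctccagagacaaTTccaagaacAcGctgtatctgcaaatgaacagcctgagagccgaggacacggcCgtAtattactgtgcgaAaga
IGHV3-48: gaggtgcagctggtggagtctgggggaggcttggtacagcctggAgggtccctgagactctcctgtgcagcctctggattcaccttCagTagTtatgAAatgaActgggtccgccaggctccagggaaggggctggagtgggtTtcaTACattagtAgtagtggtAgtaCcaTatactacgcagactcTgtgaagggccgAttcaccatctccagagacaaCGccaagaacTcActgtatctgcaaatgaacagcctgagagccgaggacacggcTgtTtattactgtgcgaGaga
IGHV5-78: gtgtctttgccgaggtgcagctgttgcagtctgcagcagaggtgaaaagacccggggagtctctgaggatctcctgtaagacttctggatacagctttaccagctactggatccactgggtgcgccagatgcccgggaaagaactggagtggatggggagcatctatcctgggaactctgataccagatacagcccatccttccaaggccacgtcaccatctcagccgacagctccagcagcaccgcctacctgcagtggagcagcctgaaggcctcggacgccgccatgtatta

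IGHV3-23 and IGHV3-48 were 91.5% identical, and their longest identical run was 58 bases. The reads were 85 nucleotides long, and no 85-base window was common to both segments. Of the 269 such windows of IGHV3-23, 26 (9.67%) occurred exactly in at least 1 of 4 other segments, and 31 of 269 (11.5%) of IGHV3-48 did. IGHV5-78, IGHV3-72 and IGHV5-51 shared no window with another segment. IGHV1-69 shared 192 of 267 windows (71.9%) with 1 other segment, and IGHV4-59 shared 155 of 266 (58.3%) with 4, so their values may be uncertain. The windows were compared over 150 segments of GRCh38, whereas the reads were aligned to hg19. Some of these segments, IGHV1-69D and IGHV3-69-1 among them, are not named in the libraries. All 31 shared windows of IGHV3-48 occur in IGHV3-69-1. How far shared windows affected the deposited values was not tested. Of the 147 symbols, 142 had a GENCODE sequence.

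Across the series, the summed FPKM of a library was 806102 to 1020940, and the 10 highest rows held 27.5% of it in LY19WT replicate 3 and 5.71% to 9.38% elsewhere. EZH2 was at 70.2, 80.4 and 93.5 FPKM in LY19Y646F and at 60.6, 76.5 and 74.7 FPKM in LY19WT, and did not differ beyond the spread of the libraries (log2 difference 0.20, adjusted p = 0.38 by limma). These tables do not separate the mutant from the endogenous transcript. Of 7 B cell markers, 7 reached 1 FPKM in every LY19Y646F library and 5 did in every LY19WT library, where MS4A1 (CD20) was at 0.0688 to 0.140 FPKM. The other marker, BLNK, was at 23.5, 0 and 23.6 FPKM in LY19WT and was in shared rows in all 6 libraries. Summed T cell marker levels were 13.9 to 16.7 FPKM in LY19Y646F and 12.7 to 15.6 FPKM in LY19WT and came mostly from TRAC. CD3E was at 0.736, 0.987 and 1.06 FPKM in LY19Y646F, where CD3D, CD3G and CD2 were at most 0.287 FPKM, and all 4 were listed at 0 in LY19WT. Of 5 myeloid markers, CD68 was in shared rows and set nearly all of the sum, 594 to 2507 FPKM in LY19Y646F and 621 to 1610 FPKM in LY19WT. LYZ was at 0.0916 to 0.263 FPKM in LY19Y646F and at 10.1 to 13.4 FPKM in LY19WT, and CD14, CSF1R and ITGAM were below 1 FPKM in every library. The 3 plasma cell markers summed to 7.96 to 18.7 FPKM in LY19Y646F and to 7.62 to 10.0 FPKM in LY19WT. PRDM1 was at 0.0818 to 0.216 FPKM in LY19Y646F and at 5.97 to 6.73 FPKM in LY19WT, and SDC1 at 0.0337 to 0.0812 FPKM in LY19Y646F and at 1.65 to 3.79 FPKM in LY19WT, and both fell (adjusted p = 8.01e-05 and 0.00463 by limma). The third, TNFRSF17, was at 7.77 to 18.5 FPKM in LY19Y646F and at 0 to 0.0387 FPKM in LY19WT, shared a row in 1 library and was not tested. The part of these marker levels in the IGHV levels was not tested. Stroma and epithelium markers summed to at most 0.270 FPKM in any library. CD79A was highest in replicate 1 of each line.

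IGHV rows summed to 4631, 5310 and 6596 FPKM in LY19Y646F and to 245, 303 and 387 FPKM in LY19WT. The lines did not overlap, and the means were 5512 ± 998 FPKM and 312 ± 71.8 FPKM (SD, n = 3 each), a ratio of 17.7. As a share of the summed FPKM of the library, IGHV rows held 0.548%, 0.646% and 0.792% in LY19Y646F and 0.0297%, 0.0376% and 0.0379% in LY19WT. The leading row ranked 4, 6 and 2 among all rows of the LY19Y646F libraries and 1391, 1215 and 530 among those of LY19WT. Without the leading row of each library, the sums were 108, 707 and 67.0 FPKM in LY19Y646F and 155, 195 and 151 FPKM in LY19WT, and these overlap. The value of 707 in LY19Y646F replicate 2 included a row at 630 FPKM that named IGHM and 3 J segments beside IGHV4-4.

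**Figure D1:**
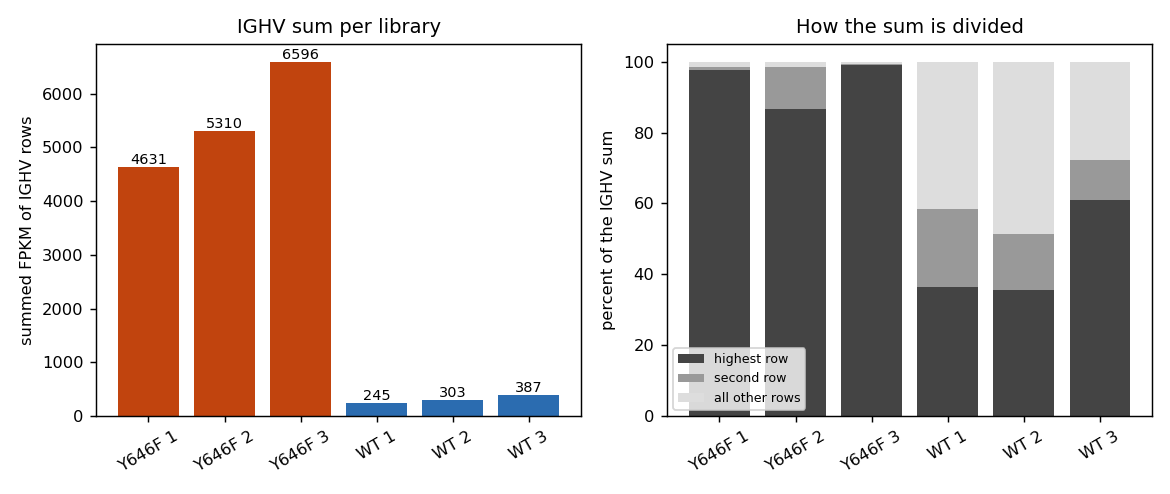
Left, summed FPKM of all rows naming an IGHV segment in each library, LY19Y646F in red and LY19WT in blue. Right, the percent of that sum held by the highest row, the second row and all other rows: the highest row holds 86.7% to 99.0% in LY19Y646F and 35.6% to 61.0% in LY19WT.

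The sum was concentrated in LY19Y646F and spread in LY19WT. The leading row held 97.7%, 86.7% and 99.0% of the IGHV sum in LY19Y646F, against 36.5%, 35.6% and 61.0% in LY19WT. The effective number of rows, the inverse of the summed squared shares, was 1.05, 1.31 and 1.02 in LY19Y646F and 4.99, 5.92 and 2.56 in LY19WT. An effective number near 1 means that nearly all RNA sits in 1 row. Rows above 0 numbered 39, 38 and 38 in LY19Y646F and 42, 51 and 46 in LY19WT.

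Of the 147 segments, 96 were above 0 in at least 1 library, 16 were above 0 in all 6 and 51 were listed at 0 in every library. Segments above 0 in at least 1 library of a line numbered 62 in LY19Y646F and 83 in LY19WT. Listed at 0 in all 3 LY19Y646F libraries and above 0 in all 3 of LY19WT were 17 segments, and 2 pseudogenes, IGHVII-62-1 and IGHVII-78-1, showed the reverse. Every Cufflinks interval of these 2 in LY19Y646F began at 0, and IGHVII-62-1 shared its row in replicate 2. The share of all genes with either pattern was not computed, so these counts have no background. Of 53 annotated V genes, 45 were above 0 somewhere and 25 reached 5 FPKM in a library, against 47 and 14 of 88 V pseudogenes. The lines did not overlap at 40 of the 147 segments, 5 of them higher and 35 lower in LY19Y646F. Of all genes tested below, 48.7% did not overlap and 24.2% did so on the lower side. The bases are unlike. The 147 segments were not filtered and include those at 0 throughout and those in shared rows. The shares are of 10674 genes that passed a filter and shared no row with another coding or immunoglobulin gene. Segments that share a row share a value, so these counts are not of independent segments.

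IGHV3-23 is one of the V segments used most often in human antibodies. Its rows were at 4523, 4603 and 6529 FPKM in LY19Y646F and at 0.381, 0.501 and 1.70 FPKM in LY19WT, so that the lines lay far apart. The germline segment lies on hg19 at chr14:106725201-106725733, and in LY19WT replicates 1, 2 and 3 the row had exactly these ends. The LY19Y646F rows began at the same base and ran on over 132, 154 and 32.9 kb, to chr14:106725201-106857249, chr14:106725201-106879274 and chr14:106725201-106758116. Within them lay 24, 27 and 3 segments that the row did not name. In LY19Y646F replicate 3 the row also named IGHV2-26, a segment listed at 0 in the 5 other libraries, which gives that segment its only value, 6529 FPKM.

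Because of this merge IGHV3-23 has no test among genes in rows of their own. With merged rows counted for every gene that they name, its log2(FPKM + 1) was 11.50 higher in LY19Y646F (SE 0.32, adjusted p = 4.5e-05 by limma over 17203 genes, of which 26.2% were called at 0.05 and 13.3% were called higher). With IGHV2-26 and IGHV3-23 joined as 1 unit the difference was again 11.50 (adjusted p = 2.5e-05 by limma over 12406 units). An exact two-sided permutation test of the 6 values gave p = 0.1, the smallest that 3 against 3 libraries allow.

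IGHV3-48 is the segment common to the leading rows of LY19WT. Its row was at 0.895, 0 and 0.938 FPKM in LY19Y646F and at 89.2, 108 and 236 FPKM in LY19WT. In LY19WT replicate 2 it stood alone, at chr14:106993814-106994346 on hg19 with a Cufflinks 95% interval of 101 to 115 FPKM. In replicates 1 and 3 of LY19WT it was merged with 11 other segments over 233 and 243 kb, so only replicate 2 assigns a value to IGHV3-48 itself. Counted with merged rows, it fell by 6.43 on the log2(FPKM + 1) scale in LY19Y646F (SE 0.48, adjusted p = 0.000653 by limma; 13.0% of all genes in this fit were called lower).

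The other segments of those merged rows have no value of their own there, only that of the row. IGHV3-29, IGHV3-30, IGHV3-32, IGHV3-33, IGHV4-28 and IGHV4-31 were in rows at 89.2, 20.1 and 236 FPKM in LY19WT. IGHV3-41 and IGHV3-49 shared a row at 2.85 FPKM in LY19WT replicate 2, IGHV4-34 was at 0.566 FPKM and IGHV3-38 at 1.70 FPKM there. The pseudogenes IGHVII-26-2, IGHVII-28-1 and IGHVII-31-1 were named in some of these rows only. In LY19Y646F, IGHV4-28 stood alone at 10.0, 2.27 and 2.67 FPKM and IGHV4-31 at 4.47, 2.58 and 2.10 FPKM, while IGHV3-33 reached at most 1.48 FPKM. When the 30 segments joined by shared rows in any library were taken as 1 unit, it was at 25.3, 18.8 and 20.3 FPKM in LY19Y646F and at 113, 158 and 249 FPKM in LY19WT, and it fell by 2.89 on the log2 scale (adjusted p = 0.00168 by limma).

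**Figure D2:**
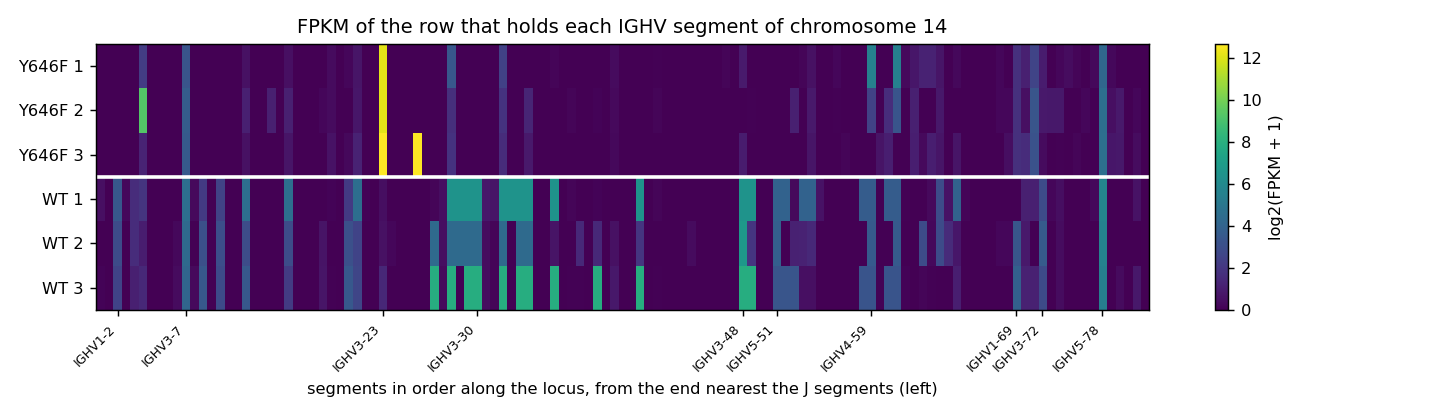
log2(FPKM + 1) of the row that holds each of 123 IGHV segments, in order along the locus from the end nearest the J segments, with LY19Y646F above the white line and LY19WT below it. The bright column in LY19Y646F is IGHV3-23, at 4523 to 6529 FPKM. Equal colours side by side in LY19WT are segments of 1 merged row.

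IGHV5-78, a pseudogene near the far end of the locus, was the second highest row of each LY19WT library. Its row, which also names hsa-mir-5195, was at 17.6, 22.6 and 23.6 FPKM in LY19Y646F and at 53.8, 47.8 and 43.1 FPKM in LY19WT. All LY19Y646F libraries were below all LY19WT libraries, and it fell by 1.15 on the log2 scale (SE 0.16, adjusted p = 0.00356 by limma; exact permutation p = 0.1). Reads of the segment and of the microRNA precursor cannot be told apart in that row.

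IGHV5-78 was 1 of 9 segments that could be tested as genes with no row shared with another coding or immunoglobulin gene. Of the 147 segments 96 met that condition, and 87 of these were below the filter of a mean of 0.5 FPKM over the 6 libraries. All 9 differences were negative: 0 were called higher in LY19Y646F and 7 lower, as many as at an unadjusted p under 0.05, where limma called 33.5% of 10674 genes in either direction, 16.9% higher and 16.6% lower. Their median log2 difference was -1.57, against -0.03 for all genes tested. Since 6 of the 9 had a mean below 0.5 FPKM in LY19Y646F and so reached the filter through LY19WT alone, their count and median follow in part from the filter.

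IGHV1-2 was listed at 0 in all 3 LY19Y646F libraries and was at 10.2, 6.43 and 4.91 FPKM in LY19WT, which on the log2(FPKM + 1) scale is -2.98 (SE 0.26, adjusted p = 0.000722 by limma). IGHV3-11 was at 0.0317, 0 and 0.0223 FPKM in LY19Y646F and at 4.72, 7.35 and 6.22 FPKM in LY19WT (-2.78, SE 0.18, adjusted p = 0.000225 by limma). IGHV3-72 was at 0.961, 0.847 and 0.285 FPKM in LY19Y646F and at 6.41, 11.5 and 6.32 FPKM in LY19WT (-2.40, SE 0.30, adjusted p = 0.00265 by limma). The lines did not overlap at any of these V genes. IGHV1-3, listed at 0 in LY19Y646F and at 1.19 to 2.04 FPKM in LY19WT, fell as well (adjusted p = 0.00257 by limma).

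IGHV1-69 is widely used in chronic lymphocytic leukaemia and in antibodies to influenza. It was at 2.42, 2.32 and 2.35 FPKM in LY19Y646F and at 0, 9.46 and 13.9 FPKM in LY19WT. LY19WT replicate 1 alone made the lines overlap, and the difference was -0.68 (SE 1.06, adjusted p = 0.66 by limma). That library held a row with no gene name at chr14:107164812-107170254 on hg19, over the stretch of the IGHV1-69 rows of the other libraries, at 9.05 FPKM. Such a row was not particular to it. LY19WT replicate 2 held one at chr14:107164813-107170239 at 3.70 FPKM, beside its IGHV1-69 row at 9.46 FPKM. Without LY19WT replicate 1 the difference was -1.89 (adjusted p = 0.00488 by limma).

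**Figure D3:**
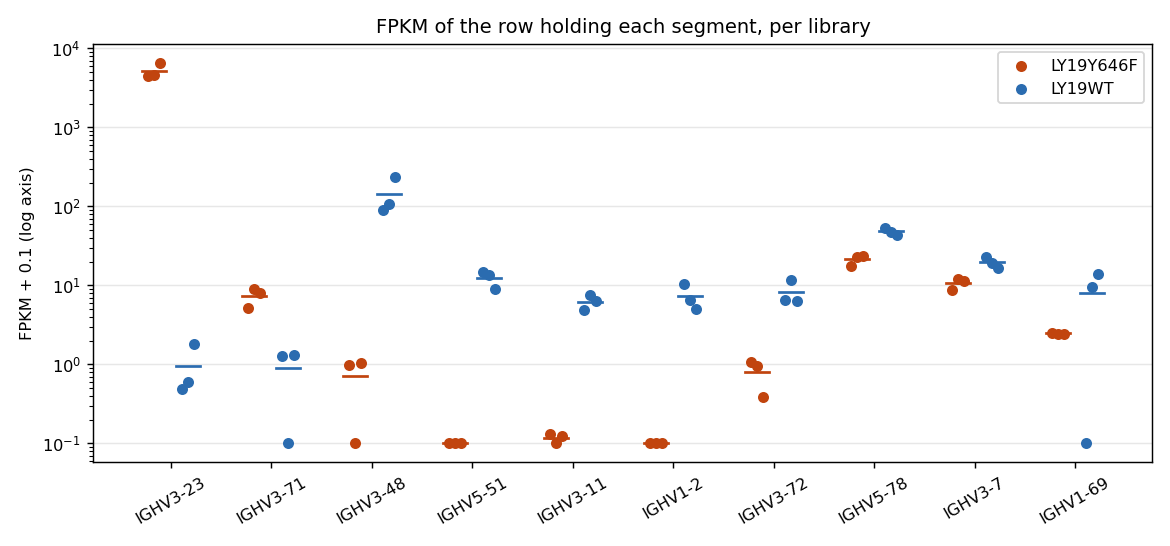
FPKM + 0.1 on a log axis of the row that holds each of 10 segments, 1 point per library and a bar at the mean, LY19Y646F left in red and LY19WT right in blue. IGHV3-23 and IGHV3-71 lie higher in LY19Y646F, IGHV1-69 overlaps, and the others lie higher in LY19WT; IGHV5-51 and IGHV1-2 are listed at 0 in all LY19Y646F libraries.

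Orphons are copies of V segments carried to other chromosomes, where they cannot join to a D segment. Rows naming the 24 orphon symbols summed to 0.676, 0.649 and 0.268 FPKM in LY19Y646F and to 8.71, 5.21 and 10.6 FPKM in LY19WT. IGHV1OR15-1 on chromosome 15 was listed at 0 in LY19Y646F and was at 2.43, 2.28 and 1.96 FPKM in LY19WT (-1.69, adjusted p = 0.000405 by limma). Its Cufflinks interval in LY19WT replicate 1 ran from 0 to 22.1 FPKM, and its row in replicate 3 also named RP11-2F9.4. IGHV3OR16-15 on chromosome 16 was at 0, 0 and 0.0851 FPKM in LY19Y646F and at 1.73, 1.52 and 3.15 FPKM in LY19WT (-1.57, adjusted p = 0.00447 by limma). IGHV1OR15-6 was listed at 0 in LY19Y646F and was at 2.23, 0.116 and 3.68 FPKM in LY19WT, and did not pass the test (adjusted p = 0.12 by limma), though without LY19WT replicate 2 it did (adjusted p = 0.00465).

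IGHV5-51, a V gene of the small IGHV5 family, was listed at 0 in all 3 LY19Y646F libraries and was in rows at 14.6, 13.4 and 9.0 FPKM in LY19WT. Its row stood alone in LY19WT replicate 2, and with merged rows counted it fell by 3.71 (SE 0.22, adjusted p = 0.0003 by limma). The row of LY19WT replicate 1 also named IGHV3-52, IGHV3-53, IGHV3-66 and IGHVIII-51-1, and that of replicate 3 IGHVII-51-2 and IGHVIII-51-1. In rows of their own or with other segments, IGHV3-52, IGHV3-53 and IGHV3-66 were below 2 FPKM in the other LY19WT libraries and in all of LY19Y646F.

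IGHV3-7 had the highest mean of the V genes that stood alone in their row in every LY19Y646F library. It was at 8.72, 11.8 and 11.2 FPKM there and at 22.9, 19.3 and 16.3 FPKM in LY19WT, where the row of replicate 1 also named IGHV3-13, IGHV3-16 and IGHV3-22. The Cufflinks interval of that merged row ran from 0 to 52.0 FPKM. The lines did not overlap, and the difference with merged rows was -0.82 (SE 0.19, adjusted p = 0.031 by limma). It missed the threshold under 8 alternatives, with adjusted p between 0.0533 and 0.112 by limma. IGHV3-9 and IGHV3-21 shared rows at 3.49, 7.44 and 10.4 FPKM in LY19WT, and in LY19Y646F IGHV3-9 was listed at 0 and IGHV3-21 was at most 0.224 FPKM. The 7 segments joined by shared rows, IGHV3-7 among them, fell as 1 unit, at 10.4, 13.7 and 13.8 FPKM in LY19Y646F and at 26.4, 38.3 and 35.6 FPKM in LY19WT (-1.33, adjusted p = 0.00491 by limma).

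The pseudogene IGHV3-71 was the only segment besides IGHV3-23 called higher in LY19Y646F with merged rows counted. It was at 5.02, 8.98 and 8.01 FPKM in LY19Y646F and at 1.18, 0 and 1.22 FPKM in LY19WT, where its rows also named IGHV2-70 in replicates 1 and 3. The difference was 2.27 (SE 0.41, adjusted p = 0.0139 by limma). The Cufflinks interval of LY19Y646F replicate 2 ran from 0 to 18390 FPKM, and the call was lost under 4 alternatives, with adjusted p between 0.0545 and 0.07 by limma, among them without LY19Y646F replicate 2 and without replicate 3.

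IGHV4-59 and IGHV4-61 varied within LY19Y646F more than between the lines. They shared a row at 44.4 FPKM in LY19Y646F replicate 1, had rows of 4.65 and 8.81 FPKM in replicate 2 and were both listed at 0 in replicate 3. Rows with no gene name that spanned IGHV4-61 were at 7.57 and 4.74 FPKM in LY19Y646F replicate 3, and replicates 1 and 2 held such rows too. In LY19WT IGHV4-59 and IGHV4-61 shared rows at 11.8, 11.1 and 8.72 FPKM, which in replicates 1 and 3 also named IGHV1-58 and IGHVII-60-1. As 1 unit of 4 segments the difference was 0.03 (adjusted p = 0.99 by limma). IGHV4-4 was at 3.73, 630 and 1.40 FPKM in LY19Y646F and at 2.70, 1.03 and 1.79 FPKM in LY19WT, the value of 630 being that of the row with IGHM. The pseudogenes IGHV3-63 and IGHV3-65 shared a row at 6.49 FPKM in LY19WT replicate 2, and IGHV3-65 was alone at 6.67 FPKM in replicate 1 and listed at 0 in replicate 3, against 0.637 to 0.737 FPKM in LY19Y646F.

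With merged rows counted for every segment, 46 segments were tested, of which 2 were called higher and 21 lower in LY19Y646F, where 13.3% of all genes in that fit were called higher and 13.0% lower, with a median log2 difference of -2.34 against 0.00 for all of those genes. Of these 46, 24 had a mean below 0.5 FPKM in LY19Y646F and 1 had one in LY19WT. Segments of a merged row share its value, as IGHV3-29, IGHV3-30 and IGHV3-32 did throughout. The counts and the median are therefore not of independent segments. With groups joined by shared rows as units, 13 IGHV units were tested, 1 was called higher and 9 lower. Of all units tested, 32.5% were called, 16.3% higher and 16.2% lower. Among the 13 were the 6 segments, of the 9 tested as genes, that had a mean below 0.5 FPKM in LY19Y646F. They reached the filter through LY19WT alone, so the count of lower units follows in part from the filter. The 6 segments whose call was lost in at least 1 alternative were IGHV3-7, IGHV3-16, IGHV3-22, IGHV3-71, IGHV4-28 and IGHV4-31.

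**Figure D4:**
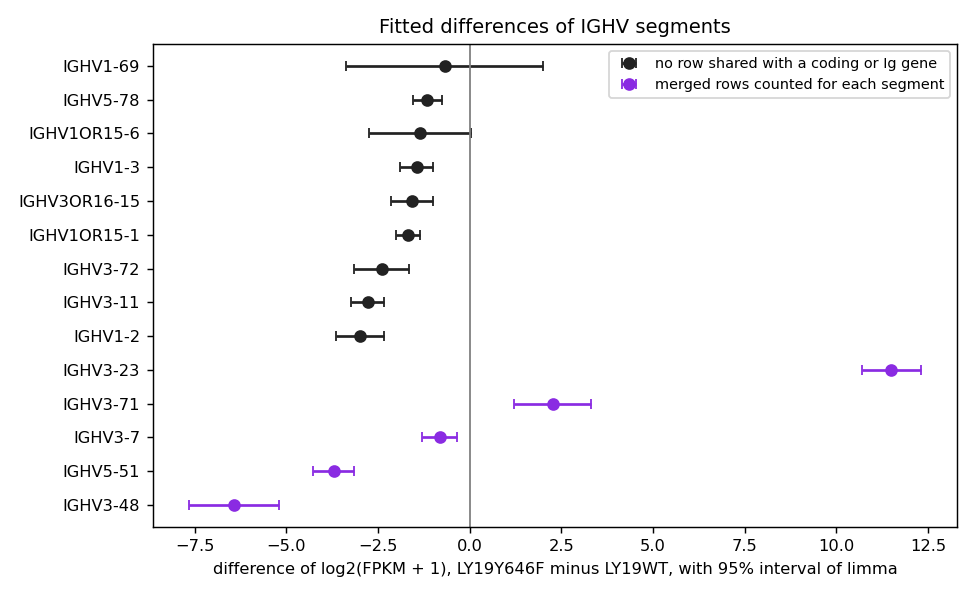
Difference of log2(FPKM + 1), LY19Y646F minus LY19WT, with the 95% interval of limma (n = 3 libraries per line). Black points are the 9 segments with no row shared with a coding or immunoglobulin gene, and purple points are 5 segments from the fit in which merged rows count for each segment, where IGHV3-23 lies at 11.50 and IGHV3-48 at -6.43.

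Over the 53 units of IGHV segments joined by shared rows that were above 0 in at least 1 library, Pearson's r of log2(FPKM + 1) was 0.957 to 0.990 within LY19Y646F and 0.921 to 0.965 within LY19WT, against 0.540 to 0.632 between the lines. One unit joins IGHV4-4 to the IGHM, IgG and J rows, and without it r was 0.944 to 0.990 within LY19Y646F, 0.915 to 0.957 within LY19WT and 0.373 to 0.522 between the lines. Without that unit and the unit of IGHV3-23, r was 0.839 to 0.974 within LY19Y646F, 0.918 to 0.960 within LY19WT and 0.778 to 0.847 between the lines, so that the ranges within LY19Y646F and between the lines overlapped. Spearman's rho was 0.611 to 0.737 within LY19Y646F, 0.564 to 0.747 within LY19WT and 0.119 to 0.459 between lines, over all 53 units. The units of a library share that library, and most share the locus on chromosome 14, so they are not replicates.

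The Cuffdiff output, the authors' deposited table, lists 34 IGHV segments among 13674 genes, 8 higher and 26 lower in LY19Y646F, where 49.7% of all its genes were higher and 50.3% lower. Of the 34 segments, 11 were at 0 in LY19Y646F and 3 were at 0 in LY19WT. How its genes were chosen is not known here. Segments may be listed through the line where they are high, so the split may follow in part from that choice. In the authors' deposited table IGHV3-23 was at 3447 FPKM in LY19Y646F and 0.815 FPKM in LY19WT, a log2 fold change of 12.05. IGHV3-48, given a row of its own in the authors' deposited table, was at 0.358 FPKM in LY19Y646F and 69.8 FPKM in LY19WT, a log2 fold change of -7.61. IGHV3-23 held 99.5% of the summed IGHV FPKM of LY19Y646F in the authors' deposited table, and IGHV3-48 held 44.2% of that of LY19WT.

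Of the 34 segments, 30 had the same direction in the authors' deposited table as in the library means, and IGHV2-70, IGHV3-7, IGHV3-63 and IGHV4-28 did not. IGHV3-7 was at 2.70 FPKM in LY19Y646F and listed at 0 in LY19WT in the authors' deposited table. In the library tables it stood alone at 19.3 and 16.3 FPKM in LY19WT replicates 2 and 3. In LY19WT replicate 1 it shared a row of 4 segments at 22.9 FPKM. IGHV4-31, which the merged rows put at 89.2, 20.1 and 236 FPKM in LY19WT, was at 3.0 FPKM in LY19Y646F and 3.03 FPKM in LY19WT in the authors' deposited table. IGHV3-30 was listed at 0 in LY19Y646F and at 12.3 FPKM in LY19WT there, and IGHV5-51 was at 0.00793 FPKM in LY19Y646F and at 15.2 FPKM in LY19WT in the authors' deposited table.

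The rows of the heavy chain's other parts also differed in kind. IGHM, the constant gene of the IgM heavy chain, was in rows at 2227, 630 and 500 FPKM in LY19Y646F and at 0.158, 0.0391 and 30.6 FPKM in LY19WT, where the row of replicate 3 also named IGHG1, IGHG3 and IGHGP. Rows naming IGHG1 to IGHG4 or IGHGP, the IgG constant genes, summed to 6.37, 2.62 and 1.94 FPKM in LY19Y646F and to 402, 125 and 86.0 FPKM in LY19WT. With merged rows counted, IGHM rose by 8.05 (SE 1.54, adjusted p = 0.0168 by limma), and IGHG1, IGHG2, IGHG3 and IGHGP had differences of -5.64 to -4.98 (adjusted p 0.0156 to 0.027 by limma). IGHG4, IGHD, IGHA1 and IGHA2 did not pass the test.

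J segments lay in the IGHM rows of LY19Y646F and, in LY19WT replicates 2 and 3, in rows at 120 and 30.6 FPKM that named IgG constant genes. Of 5 J segments tested with merged rows, 0 passed the test (adjusted p at least 0.0572 by limma), and 3 had an unadjusted p under 0.05. All 27 diversity segment symbols were listed at 0 in all 6 libraries. Rows naming the variable segments of the kappa light chain summed to 2011, 4693 and 5548 FPKM in LY19Y646F and to 76.5, 76.2 and 66.0 FPKM in LY19WT, whereas those of the lambda light chain summed to 47.9, 40.7 and 54.2 FPKM in LY19Y646F and to 448, 344 and 451 FPKM in LY19WT. The light chain sums of the lines did not overlap.

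**Figure D5:**
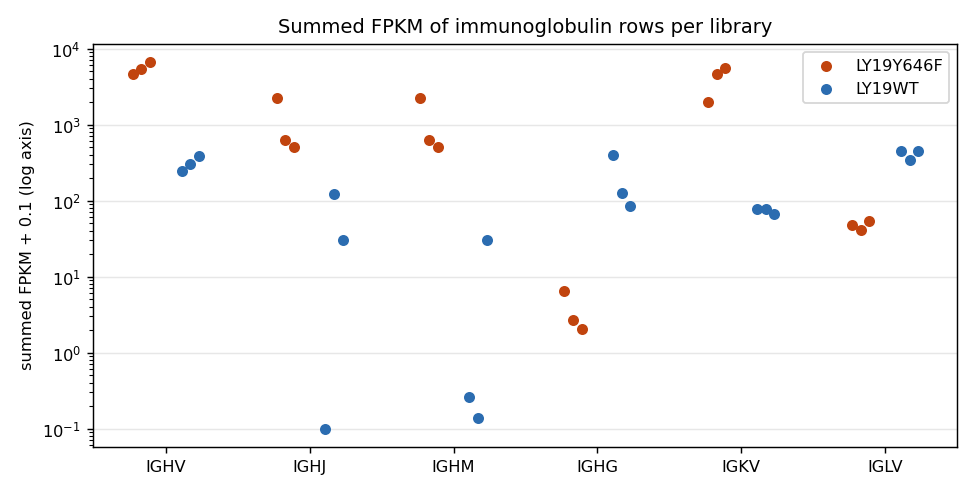
Summed FPKM + 0.1 on a log axis of rows that name IGHV, IGHJ, IGHM, IGHG, IGKV and IGLV symbols, 1 point per library, LY19Y646F left in red and LY19WT right in blue. A row that names 2 kinds of gene is counted under both. IGHV, IGHM and IGKV sums are higher in LY19Y646F, and IGHG and IGLV sums are higher in LY19WT.

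Genes that rearrange, diversify or accompany the heavy chain changed in both directions. Of 19 partner and processing genes 15 were tested, and 6 rose and 5 fell in LY19Y646F, where 16.9% of all genes tested were called higher and 16.6% lower, with a median log2 difference of 0.58 against -0.03 for all genes tested. IGJ, the joining chain of secreted IgM, was at 356, 518 and 468 FPKM in LY19Y646F and at 0.252, 0.529 and 0.689 FPKM in LY19WT (8.23, adjusted p = 1.99e-05 by limma). CD79B, a signalling chain of the B cell receptor, rose by 0.94, HSPA5, the endoplasmic reticulum chaperone that binds heavy chains, by 1.57, and UNG and POU2F1 rose as well.

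The genes that fell are known from precursor B cells. RAG2 was at 0.516, 0 and 0.580 FPKM in LY19Y646F and at 65.1, 80.8 and 84.2 FPKM in LY19WT (-5.85, adjusted p = 4.75e-05 by limma). DNTT, which adds bases at the joints of V, D and J segments, was at 0.0481 to 0.0816 FPKM in LY19Y646F and at 90.7 to 170 FPKM in LY19WT (-6.77, adjusted p = 4.67e-05 by limma). VPREB1, a surrogate light chain, was at 0.595 to 1.84 FPKM in LY19Y646F and at 180 to 410 FPKM in LY19WT (-6.92, adjusted p = 0.000163 by limma). IGLL1, its partner, fell by 8.35 and EBF1, an early B cell transcription factor, by 2.85. RAG1 had no test because of shared rows and was at 0.499 to 1.08 FPKM in LY19Y646F and at 151 to 182 FPKM in LY19WT. PAX5, POU2F2 and MZB1 were not tested either. PAX5 was at 22.3 to 35.2 FPKM in LY19Y646F and at 85.7 to 118 FPKM in LY19WT. POU2F2 went the other way, at 27.8 to 31.3 FPKM in LY19Y646F and at 0.0677 to 0.138 FPKM in LY19WT. MZB1 was in shared rows and its values overlapped. VPREB3 was tested and not called (-0.68, adjusted p = 0.53 by limma). The part of any of these genes in the IGHV levels was not tested.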

How the data were processed

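Polyadenylated RNA of 3 LY19Y646F and 3 LY19WT libraries was read from a single end with 85 nucleotides, per the labels' protocols. Reads were aligned with STAR 2.5.3a and processed with Cufflinks 2.2.1 and Cuffdiff 2.2.1 on hg19, per the submitters' processing notes. Each deposited library table gives FPKM per row with a 95% interval, per the file headers. Rows were assembled within each library, so a row can name several genes and differ in extent between libraries. The authors' deposited Cuffdiff table gives each line's mean FPKM and the log2 of their ratio, and names the line of each column, per the file headers. Depth in reads is unknown.

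Lines were compared with limma 3.58.1 (R 4.3.3) on log2(FPKM + 1), as LY19Y646F minus LY19WT, with a variance trend. Tests were two-sided, p-values were adjusted by Benjamini-Hochberg over all tested genes at a threshold of 0.05, and genes needed a mean of at least 0.5 FPKM. Changes of low genes are understated on this scale. A gene with a failed row, or sharing a row with another coding or immunoglobulin gene in any library, was left out. As alternatives, merged rows were counted for every gene they name, and symbols joined by shared rows were taken as units. On simulated data of 10674 genes the fit recovered 32 of 100 2-fold and 70 of 100 4-fold changes, with 9 false among 111 calls. Row positions are hg19, counted from 1. Another 108 IGHV rows of each library lie on a patch sequence, all at 0. Every segment with at least 5 FPKM in a library is named; 1 called gene of the partner list is not reported here. Members and lists were chosen with earlier results of these data known. Separate cultures are not stated, so the p-values cover only the spread of these libraries, which may be technical.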

Additional observations from a re-analysis of the deposited data

Results flagged for a closer look

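Rows with no gene name inside the span of the IGHV segments, chr14:106405611-107288019 on hg19, enter none of the sums above. They summed to 111, 79.8 and 124 FPKM in LY19Y646F and to 67.6, 57.8 and 72.7 FPKM in LY19WT, a mean of 105 FPKM in LY19Y646F against 66.0 FPKM in LY19WT. The lowest LY19Y646F library was above the highest LY19WT library, which is why they are given here. Relative to the IGHV sum they came to 1.5% to 2.40% in LY19Y646F and to 18.8% to 27.6% in LY19WT. In LY19Y646F replicate 1, 2 of these rows, chr14:106878810-106878975 at 39.5 FPKM and chr14:106879138-106879303 at 53.4 FPKM, held most of the sum. Rows over the same stretch held most of it in LY19Y646F replicate 3, chr14:106878810-106878975 at 70.0 FPKM and chr14:106879078-106879303 at 19.5 FPKM. The higher sums of replicates 1 and 3 thus came mostly from this stretch. The IGHV3-23 row of LY19Y646F replicate 2 covered most of it. In that library another row with no gene name, chr14:107087207-107183921 at 48.9 FPKM, held most of the sum. The LY19Y646F sums thus rested on few rows of each library.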

How the results depend on the processing

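Of the 9 segments tested as genes with no shared coding or immunoglobulin row 7 were called, and 7 to 8 without each library in turn. With no filter 11 of 45 segments were called (2 higher), where 4486 of 24672 genes were. A filter at 2 FPKM gave 4 of 5 segments, against 2921 of 8179 genes. Merged rows counted for every gene gave 23 of 46 segments, against 4515 of 17203 genes. Of 10674 genes 3572 were called, 5788 with library weights and 2781 to 4071 without each library in turn. Of 685 differences of 45 named segments under an alternative, 621 kept direction and side of the threshold, 2 that were no calls became 0 (IGHV2-26 without LY19Y646F replicate 3 and IGHVII-31-1 without LY19WT replicate 1), 41 lost a call, 15 gained one and 6 turned sign, none of the last from a call: IGHV1-69 was 0.052 at a pseudocount of 0.1 and IGHVII-60-1 0.024 with library weights. Without each library in turn, IGHV1-69 ranged from -1.89 to 0.056, IGHV3-63 from -1.03 to 0.43, IGHV4-59 from -2.27 to 0.48 and IGHV4-61 from -1.87 to 0.88. Over all alternatives IGHV3-23 lay at 11.32 to 12.64 and IGHV3-48 at -8.13 to -6.01.

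The IGHV share of LY19WT, 0.0351%, was 0.0295% over rows with no other kind of gene, 0.0398% of named rows and 0.0416% without the 10 highest other rows. Without each library in turn the IGHV sum was 4971 to 5953 FPKM in LY19Y646F and 274 to 345 FPKM in LY19WT, its share 0.597% to 0.719% and 0.0337% to 0.0378%, the leading row's share 92.2% to 98.3% and 36.0% to 48.8%, and the effective number 1.03 to 1.18 and 3.77 to 5.46. The lowest r between the lines, 0.540, was 0.794 without the unit of IGHV3-23, 0.373 without the unit of constant genes and 0.778 without both, where the lowest within LY19Y646F was 0.839, against 0.957. These alternatives were chosen after seeing the data, as was adding the unnamed rows to the sums, which moved neither sum by more than 1 SD. Segments lower in LY19Y646F numbered 26 in the authors' deposited table, against 28 by the library means.

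With the replicate number as a block 3894 of 10674 genes and 7 of 9 segments were called. Same-numbered libraries correlated at 0.264, 0.0987 and 0.138 in their deviations, so the numbers were not taken to pair the samples, though each library correlated best with its own number, a hint from the data. Segments in merged rows have no level of their own, and the depth in reads behind low values is unknown.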
